A study of Homo sapiens with 8 samples.

Results

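The comparison concerned the response of open chromatin to IFNγ in 2 wild-type (WT) clones of U2OS, a human osteosarcoma cell line. It used 4 of the 8 libraries of the series: clones WT_4 and WT_5, each without treatment and after IFNγ at 250 U/ml. The sample labels state 24 h of treatment, while the study's own text gives a longer time for these libraries, so the duration is uncertain. The other 4 libraries came from 2 clones knocked out (KO) for ZBTB48, a zinc finger protein, with the same pair of conditions, and served only as a readout that played no part in choosing regions. Each genotype was represented by 2 clones and each clone by 1 library per condition, so clone and culture could not be separated. FAIRE-seq sequences DNA that stays free of protein after formaldehyde fixation and phenol extraction, and so marks nucleosome-poor, accessible DNA such as active promoters and enhancers. The authors' peak list of each library gave, for every peak, the fold enrichment of fragments over the local background and a −log10 p value. Peaks of the 4 WT lists on chromosomes 1 to 22 and X sharing 1 bp or more were merged, which gave 46384 regions. A region was called gained if both IFNγ libraries and neither untreated library had a peak in it (395 regions), and lost if the reverse held (237 regions). A further 13906 shared regions had a peak in all 4 lists.

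IFNγ binds a receptor that activates the kinases JAK1 and JAK2, which start JAK-STAT signalling. The signal reaches GAS elements in early target genes such as IRF1, and the factor made from IRF1 then binds ISRE elements in a later set of genes for antigen presentation and antiviral defence. CIITA, the master regulator of MHC class II genes, is a standard target with several alternative promoters, of which promoter III (pIII) and promoter IV (pIV) can respond to IFNγ.

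The sequences below show letters that match GAS or ISRE elements at some of the regions described in the results. All are from the GRCh38 reference, plus strand, cut to the part of the 300 bp around the strongest summit that holds no annotated UTR. Capitals mark an ISRE core (GAAANNGAA, or its reverse complement where it lies on the minus strand) or a GAS element (TTCNNNGAA, the same letters on both strands). IRF1, CIITA and PARP14 were picked for printing after their values were seen. TMEM229B, IL17REL and MEIS1-AS3 are the strongest gained regions with such a match outside UTRs and outside sequence over 500 kb from a protein-coding gene.
IRF1 main promoter, chr5:132490778-132491030: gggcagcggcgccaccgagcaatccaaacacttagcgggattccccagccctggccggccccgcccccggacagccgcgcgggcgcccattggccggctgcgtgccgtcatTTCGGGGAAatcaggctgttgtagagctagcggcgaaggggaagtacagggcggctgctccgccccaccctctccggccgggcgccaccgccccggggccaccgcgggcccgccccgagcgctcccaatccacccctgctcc
IRF1 upstream start, chr5:132495794-132496093: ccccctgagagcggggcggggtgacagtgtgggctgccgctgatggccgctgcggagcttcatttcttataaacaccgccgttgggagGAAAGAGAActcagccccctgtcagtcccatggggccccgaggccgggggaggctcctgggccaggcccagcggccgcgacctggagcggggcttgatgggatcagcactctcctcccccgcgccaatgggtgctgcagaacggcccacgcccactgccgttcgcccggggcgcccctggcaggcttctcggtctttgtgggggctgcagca
CIITA pIV, chr16:10878757-10878968: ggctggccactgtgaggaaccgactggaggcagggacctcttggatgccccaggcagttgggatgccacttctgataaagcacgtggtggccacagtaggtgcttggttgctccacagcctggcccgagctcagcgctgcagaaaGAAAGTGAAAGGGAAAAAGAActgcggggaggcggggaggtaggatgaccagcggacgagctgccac
PARP14, chr3:122680674-122680838: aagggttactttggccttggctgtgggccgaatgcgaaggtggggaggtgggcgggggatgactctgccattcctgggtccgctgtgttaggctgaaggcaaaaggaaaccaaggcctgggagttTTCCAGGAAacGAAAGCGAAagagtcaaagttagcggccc
TMEM229B, chr14:67488722-67488926: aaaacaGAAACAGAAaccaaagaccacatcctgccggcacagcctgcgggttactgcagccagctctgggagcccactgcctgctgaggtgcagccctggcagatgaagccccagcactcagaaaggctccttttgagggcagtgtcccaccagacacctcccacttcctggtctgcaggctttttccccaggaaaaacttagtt
IL17REL, chr22:50017014-50017313: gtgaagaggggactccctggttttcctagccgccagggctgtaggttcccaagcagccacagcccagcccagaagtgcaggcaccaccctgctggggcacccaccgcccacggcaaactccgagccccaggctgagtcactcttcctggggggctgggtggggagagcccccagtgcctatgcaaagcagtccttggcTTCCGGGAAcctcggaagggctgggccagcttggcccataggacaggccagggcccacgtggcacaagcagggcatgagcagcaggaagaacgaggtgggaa
MEIS1-AS3, chr2:66434122-66434421: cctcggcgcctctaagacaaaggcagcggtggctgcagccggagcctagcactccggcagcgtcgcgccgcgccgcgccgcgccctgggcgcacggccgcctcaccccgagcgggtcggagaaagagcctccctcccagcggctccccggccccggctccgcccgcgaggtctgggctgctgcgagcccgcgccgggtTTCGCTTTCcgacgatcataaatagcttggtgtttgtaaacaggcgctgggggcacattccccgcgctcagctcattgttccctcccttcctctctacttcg
The CIITA sequence holds 3 overlapping ISRE cores in 1 run, and the IRF1 main promoter holds a single GAS element. PARP14 has a GAS element next to an ISRE core. A match describes the letters only and is no evidence that a factor was bound.

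The treatment markers IRF1 and CIITA differed by start site. IRF1, the first transcription factor of the response, had peaks at 2 annotated starts. At its main promoter, where the fold enrichment of the 2 treated libraries did not lie above that of both untreated ones (chr5:132490004-132491489), the values were 152 in untreated WT_4, 78.5 in untreated WT_5, 125 in treated WT_4 and 146 in treated WT_5. This peak was already among the strongest of every library, at the 99.1 and 98.0 percentile of the untreated lists and at the 99.8 percentile of both treated lists, where the percentile ranks a peak's −log10 p within its own list from 0 to 100. At the upstream start (chr5:132495623-132497338) fold enrichment was 40.0 and 19.0 without treatment and 75.1 and 64.8 with it, and the percentile went from 74.9 to 97.9 in WT_4 and from 68.8 to 92.3 in WT_5. The treated libraries of both clones were thus above both untreated ones at this start.

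CIITA had no listed peak at pIV (chr16:10878680-10879099) in either untreated WT library. The treated libraries had a peak there of 6.90-fold enrichment in WT_4, from 12 fragments at the summit, and of 11.6-fold in WT_5, from 28 fragments. The KO clones showed the same pattern, with no listed peak untreated and 4.72-fold and 5.81-fold enrichment after IFNγ. The CIITA start 5′ of pIV (chr16:10877039-10877281) had a peak only in treated WT_5, of 5.41-fold enrichment from 17 fragments. An absent peak means a signal below the threshold of the peak caller at that depth, not closed chromatin.

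The 2 clones did not respond alike in the number of peaks. WT_4 had 21715 peaks untreated and 18913 after IFNγ, a change of -2802. WT_5 had 29567 and 37533, a change of 7966. The mean change of 2582 peaks was within what exchanging the labels inside clones gives (exact permutation test over the 4 assignments, two-sided p = 1, with 0.5 the smallest value this design allows). WT_4 gained 3203 regions and lost 6375, while WT_5 gained 12213 and lost 4132. Of the regions gained in one clone, the 395 that were gained in both made up 12.3% in WT_4 and 3.23% in WT_5. More regions moved in opposite ways, since 866 were lost in WT_4 and gained in WT_5, and 142 did the reverse. The 2 treated libraries also differed in kind, as 73.3% of peaks lay within 1 kb of a transcription start site (TSS) in WT_4 and 52.9% in WT_5.

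**Figure D1:**
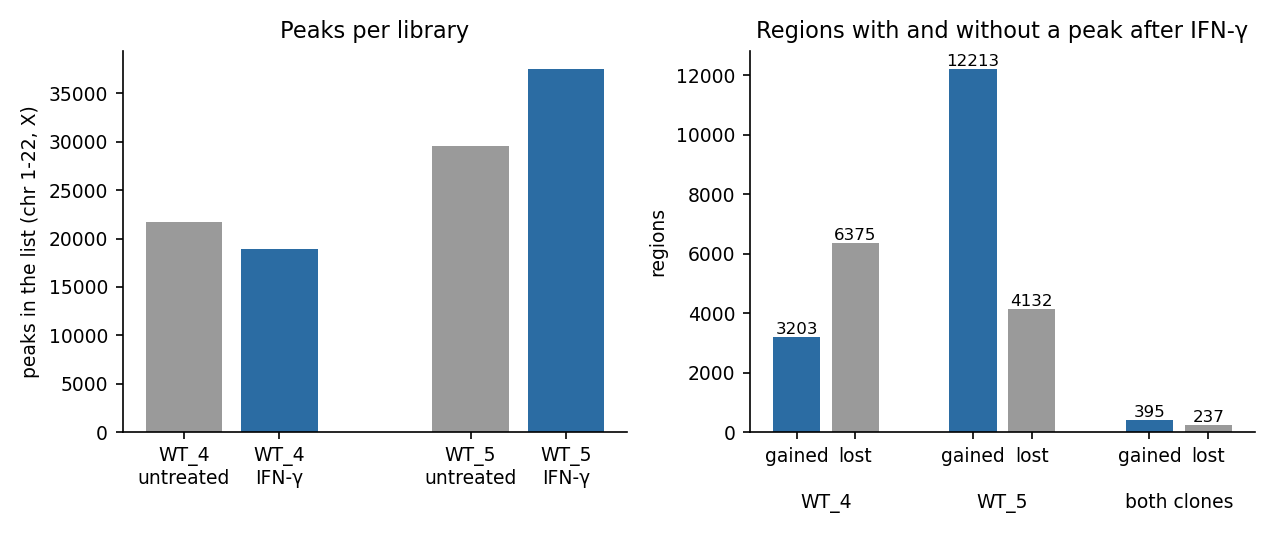
Left, number of peaks in each WT library; right, number of regions gained or lost after IFNγ in WT_4, in WT_5 and in both clones. Blue bars are treated libraries or gained regions and grey bars are untreated libraries or lost regions. The list of WT_4 is shorter after IFNγ (18913 against 21715 peaks) and that of WT_5 is longer (37533 against 29567).

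The regions gained in both clones were 0.852% of all regions and the lost ones 0.511%. This difference depended on the length of the lists. When every WT list was cut to its 18913 strongest peaks, the length of the shortest, 160 regions were gained and 177 were lost. Of the 395 gained regions 59 remained in the gained set at equal length, and of the 237 lost regions 13 remained. Both sets were made of weak peaks. Gained regions had a median of 10.0 fragments at the summit in treated WT_4 and 13.0 in treated WT_5, against 38.0 and 72.0 for shared regions. Lost regions had a median of 10.0 fragments in each untreated library. These are counts without a test, since the files hold no read counts for regions without a peak.

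With all 4 libraries, a smaller share of gained regions than of all regions lay at promoters. Of the 395, 111 (28.1%, 95% Wilson interval 23.9 to 32.7 for counting error only) were within 1 kb of an annotated TSS, against 47.7% of all regions and 84.5% of shared regions. At the summit, 204 gained regions were intronic and 145 intergenic, with 33 in exons and 13 in UTRs. Of the lost regions, 102 of 237 (43.0%, interval 36.9 to 49.4) were within 1 kb of a TSS. The place of gained regions below lost and below all regions rested on untreated WT_4. Without that library, 49.9% of 982 gained, 23.5% of 3918 lost and 48.7% of all regions were within 1 kb of a TSS. Lost regions thus stayed below all regions. At equal length the promoter share was 38.8% for gained, 44.6% for lost and 60.9% for all regions.

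The strongest gained regions near protein-coding starts were at RHBDF2, IL17REL, MEIS1, TMEM229B, MFSD12 and GADD45B. RHBDF2, which encodes the inactive rhomboid protein iRhom2 that brings the TNF-shedding enzyme ADAM17 to the cell surface, had its peak over an annotated start (chr17:76492883-76493760). Its fold enrichment was 13.0 in treated WT_4 and 19.3 in treated WT_5. The region near IL17REL, an IL-17 receptor-like gene, lay 4207 bp from the TSS (chr22:50016972-50017404) and had 13.1-fold and 15.5-fold enrichment. Both regions thus had similar strength in the 2 clones.

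TMEM229B, a membrane protein gene, had the widest gap between clones, with 7.0-fold enrichment in treated WT_4 and 32.7-fold in treated WT_5 over an annotated start (chr14:67488136-67488928). At MEIS1, a homeobox gene named here with its antisense RNA MEIS1-AS3, the values were 14.0-fold and 10.3-fold (chr2:66434066-66434491, intronic). GADD45B, a stress-induced gene, had 13.2-fold and 11.5-fold enrichment in an intergenic region 2464 bp from its TSS (chr19:2478820-2479189), and MFSD12, a lysosomal transporter gene, had 7.97-fold and 24.9-fold (chr19:3552840-3553491, intronic). Enrichment was thus stronger in WT_5 at TMEM229B and MFSD12 and stronger in WT_4 at MEIS1 and GADD45B.

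The remaining 6 of the 12 strongest gained regions were nearest to long noncoding RNA genes. LINC02324, with MAX the nearest coding gene at 126874 bp, had 7.83-fold and 16.6-fold enrichment (chr14:65229569-65230644), and ENSG00000274248, 10808 bp from COL6A1, had 13.0-fold and 13.1-fold (chr21:45970681-45970962). BMS1P14 (chr9:40560228-40560477) and LINC01691 (chr1:123723109-123723345) lay 568204 bp and 2536007 bp from the nearest coding TSS. ENSG00000290429 (chr16:46387840-46388062) and ENSG00000281904 (chr2:90398451-90398780) had local backgrounds of 12.9 and 12.3 fragments in treated WT_4, where the lowest of that library was 0.621. Their untreated KO libraries held peaks at both, up to the 97.6 percentile at ENSG00000290429. Both untreated KO libraries also had peaks at LINC01691 (33.5-fold and 17.6-fold) and MEIS1 (8.40-fold and 6.11-fold). One of them had a peak at BMS1P14 (11.6-fold), RHBDF2 (4.57-fold) and MFSD12 (6.35-fold), and neither at the others of the 12. With IFNγ the percentile at MEIS1 changed by 18.6 points in the first KO clone and by -3.59 in the second. Of all gained regions 8.35% were over 500 kb from a coding TSS, against 2.7% of all regions. No repeat annotation was used here, and the part of repeats in these regions was not tested.

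Below these 12, SP100 and LAT2 were next in order. SP100 encodes a nuclear body protein induced by interferons, and its start (chr2:230416050-230416355) had 8.51-fold and 20.0-fold enrichment. The GBP5 gene of the guanylate-binding protein family had a gained region 448 bp from its TSS (chr1:89273308-89274820), of 6.83-fold and 5.21-fold enrichment. SP100, LAT2 and GBP5 were named after their values were seen. In all, 3 of the 395 gained regions were nearest to a gene of the interferon lists described below (CIITA once and GBP5 with 2 regions), or 0.76% against 0.42% of all regions, and none of the 237 lost regions was.

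Among lost regions the strongest was in an intron of GSE1, nearest to LINC00311 (chr16:85303354-85303919), with 15.8-fold enrichment in untreated WT_4 and 11.6-fold in untreated WT_5. SYNDIG1L, related to a synapse differentiation factor, had 10.7-fold and 9.03-fold over its start (chr14:74425800-74426442). MRPL21, a mitochondrial ribosomal protein gene, had 11.3-fold and 7.48-fold over its start (chr11:68903774-68904129), and GPSM1, a G-protein signalling modulator, had 9.06-fold and 9.88-fold in an intron (chr9:136339283-136339782). The other strong lost regions were nearest to ENSG00000275613, ENSG00000287325, ENSG00000290548 and LINC02827, with 6.18-fold to 15.7-fold enrichment. Of these 8 lost regions, the strongest, 7 had a listed peak in at least 1 treated KO library, the exception being LINC02827. Over all 237 lost regions, 22.4% and 15.6% had a peak in the treated libraries of the first and second KO clone. No KO library had a peak at 59.5% of them.

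The letters of the ISRE core were more frequent in gained than in lost regions. In the 300 bp around the summit, 74 of 395 gained regions (18.7%) held GAAANNGAA on either strand, against 15 of 237 lost regions (6.3%) and 6.8% of all regions. The GAS letters TTCNNNGAA were in 50 gained (12.7%), 14 lost (5.9%) and 6.5% of all regions. Away from promoters, over 1 kb from any TSS, the ISRE share was 21.1% of 284 gained regions and 8.4% of all such regions. Within 1 kb of a TSS it was 12.6% of 111 gained regions and 5.2% of all. At equal length it was 20.6% of gained and 6.3% of all regions. These shares include the regions over 500 kb from a coding TSS, which were 8.35% of gained and 2.7% of all regions. Among them, LINC01691 held ISRE and GAS letters and BMS1P14 held GAS letters. The part of such regions in the motif shares was not tested.

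Other motifs were searched in the same windows. The AP-1 letters TGANTCA were in 30.9% of gained, 18.6% of lost and 17.4% of all regions, and the TEAD letters GGAATG in 22%, 11% and 15.6%. The RUNX letters TGTGGT were at 19.2%, 17.3% and 18.3%. The SP letters GGGCGG were less frequent in gained regions, at 26.8% against 45.6% of lost and 46.3% of all regions, and the NF-Y letters CCAAT were at 19.2%, 17.3% and 25.2%. The stricter GAS form TTCCNGGAA was found in 6 gained and 2 lost regions.

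**Figure D2:**
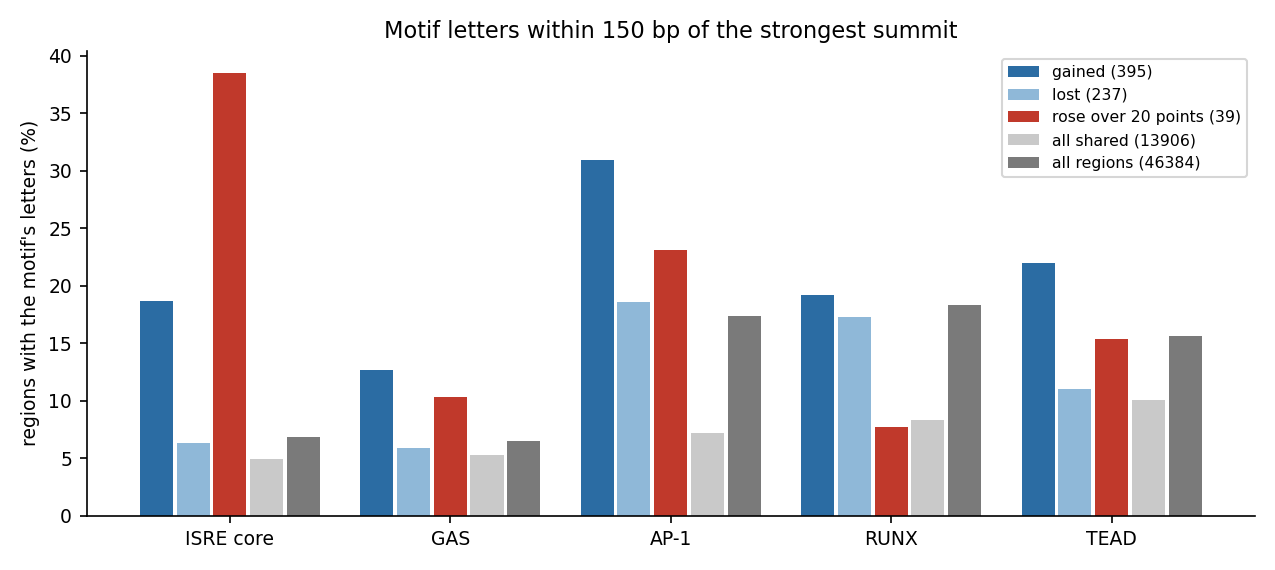
Share of regions, in percent, that hold a motif's letters within 150 bp of the strongest summit, for gained regions, lost regions, shared regions over 20 percentile points higher in both clones, all shared regions and all regions. The ISRE core stands at 38.5% of the regions that moved over 20 points and at 18.7% of gained regions, against 6.8% of all regions.

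Where a region had a peak in all 4 lists, the change of percentile within each clone gave the move of its rank, although ranks also depend on which weaker peaks a list holds. Of the 13906 shared regions, 3488 (25.1%) were higher in the treated library of both clones, 1957 (14.1%) were lower in both, and the rest differed in direction. The median change was -3.65 points in WT_4 (SD 11.2 over regions) and 3.96 in WT_5 (SD 9.02), so that the whole distribution was displaced in opposite ways in the 2 clones. In a limma fit with clone as a block, no region passed a Benjamini-Hochberg adjusted p of 0.05 in either direction (0% of 13906), and 135 higher and 38 lower regions had an unadjusted p under 0.05. The fit had 1 residual degree of freedom before moderation, and no alternative scale of the ranks gave a call. The changes below are therefore descriptions, with the limma SE where it is given.

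Large changes shared by both clones were more often upward. By over 20 points in both clones, 39 regions (0.28%) stood higher and 3 (0.0216%) lower, a threshold set after the values were seen. On the percentile among shared regions alone the counts were 53 and 8, at equal list length they were 37 and 22, and 30 regions but 0 had a fold enrichment changed over 2 times upward or downward in both clones. At equal length the excess of upward regions was therefore smaller. Of the 39 regions, 20 were among the 53, 18 among the 37 and 14 among the 30, and none of the 3 lower regions was among the 22, so the members depended on the scale. The last region inside the threshold changed by 24.5 and 20.0 points (ENSG00000287804), and the first outside, near BCL3, by 28.5 and 19.98.

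IL15RA, the receptor chain that presents interleukin-15, had the largest mean change, of 57.2 points (SE 9.33). Its start region (chr10:5976965-5978321) was at the 31.0 percentile in untreated WT_4 and 0.188 in untreated WT_5, and at 74.4 and 71.3 after IFNγ. IL15, its ligand, went from 6.93 and 20.1 to 39.2 and 68.9 (mean 40.6, SE 6.43). Ligand and receptor chain were both named for the size of this change. That both stood higher in both treated libraries is therefore no separate support.

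RSAD2, which encodes the antiviral enzyme viperin, went from the 25.6 and 35.4 percentile to 75.8 and 77.3 (chr2:6865112-6866047), with fold enrichment of 5.82 and 6.11 before and 23.49 and 22.04 after. NLRC5, the transactivator of MHC class I genes, went from 44.04 and 65.83 to 84.07 and 91.29 (chr16:56989215-56989881). USP18, the protease that removes ISG15 from proteins and dampens interferon signalling, went from 55.6 and 45.4 to 81.5 and 78.7. In these 3 regions both treated values lay above both untreated ones.

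PARP14 and the start shared by PARP9 and DTX3L, which encode ADP-ribosylation and ubiquitin ligase proteins of the interferon response, moved by similar amounts. PARP14 went from 37.5 and 42.7 to 62.1 and 78.4 (chr3:122680531-122681440), and PARP9 with DTX3L from 49.9 and 56.6 to 74.7 and 85.9 (chr3:122564083-122564847). OAS3, a sensor of double-stranded RNA, went from 35.8 and 42.2 to 61.7 and 71.6 (chr12:112938249-112938736). HLA-E, a non-classical MHC class I gene, went from 36.6 and 56.5 to 58.1 and 79.0 (chr6:30489107-30490359). IL12A, a cytokine subunit gene, and RBCK1, part of the linear ubiquitin ligase, were also among the 39, and their percentiles are shown in the plot of 12 promoters.

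**Figure D3:**
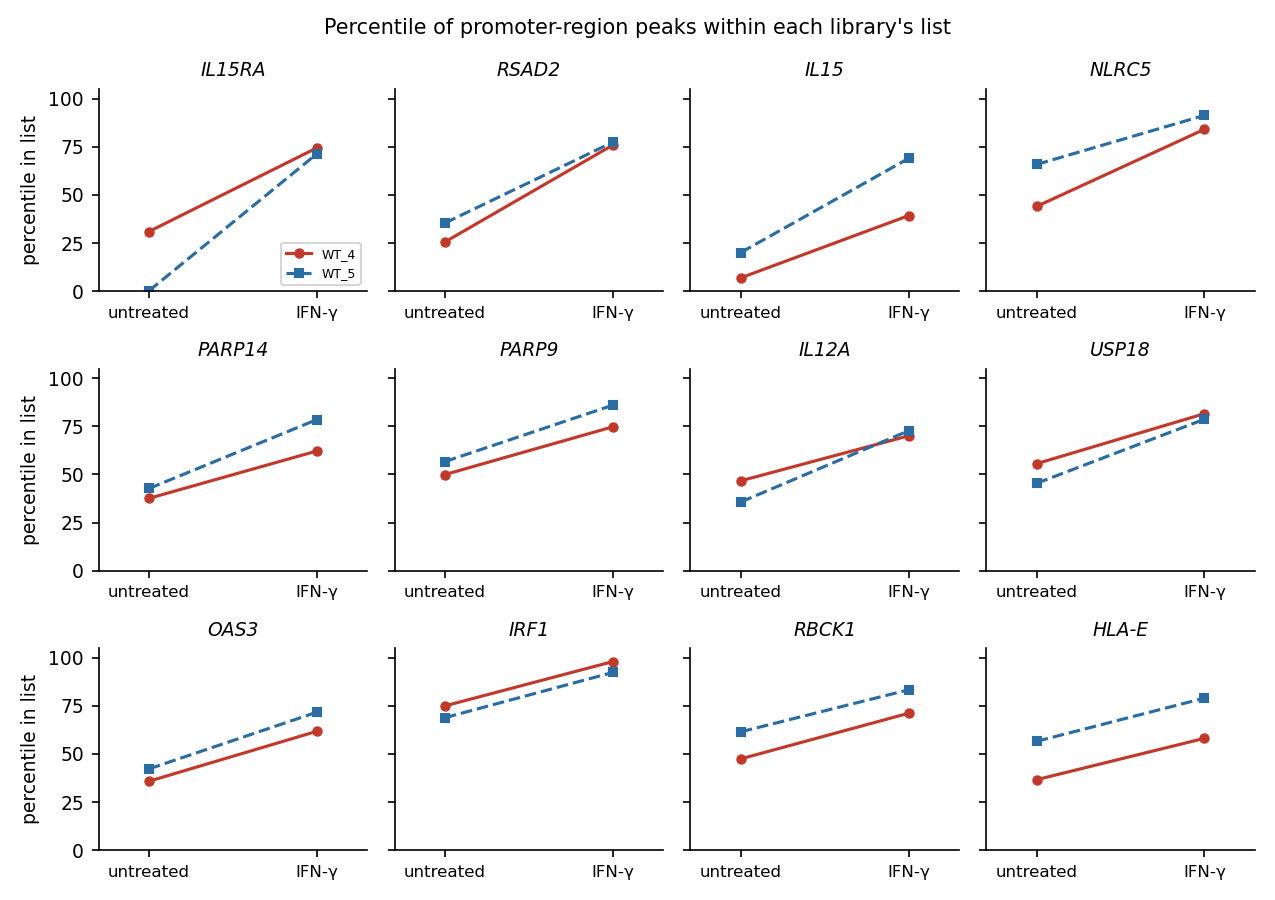
Percentile of the strongest peak (vertical axis, 0 to 100) in the untreated and the IFNγ library of WT_4 (red circles) and WT_5 (blue squares) for 12 of the 39 regions, all at an annotated TSS. Every line ascends, as the choice of the 39 regions requires. Examples are 31.0 to 74.4 for IL15RA in WT_4 and 68.8 to 92.3 for IRF1 in WT_5.

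Other large upward changes were at less familiar places. The region by ENSG00000273230, 4262 bp from INTS1, changed by 49.4 points on average (SE 4.25; chr7:1466685-1467499). An intronic region near SPHK1, sphingosine kinase 1, changed by 43.9 (SE 9.96), and the region 1485 bp from AHNAK2 by 33.8 (SE 8.61). The regions near FLJ40194 (37.4) and LINC02288 (33.9) moved by over 50 points in WT_5 but by 16.2 and 14.3 in WT_4. The downward changes were led by RPH3AL, a vesicle transport gene, which went from 53.0 and 55.0 to 21.2 and 26.9 over an annotated start (chr17:386030-386473, mean -29.9, SE 4.12). ENSG00000257958, with TBX3 the nearest coding gene, changed by -28.6. The regions near KIF1A, MATN2, ALKAL1, ENSG00000223393, HCG11 and LRFN3 followed, with mean changes between -26.2 and -22.8, of which KIF1A and MATN2 rested on WT_4 (changes of -49.5 and -47.4) and hardly moved in WT_5 (-2.93 and -3.18).

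**Figure D4:**
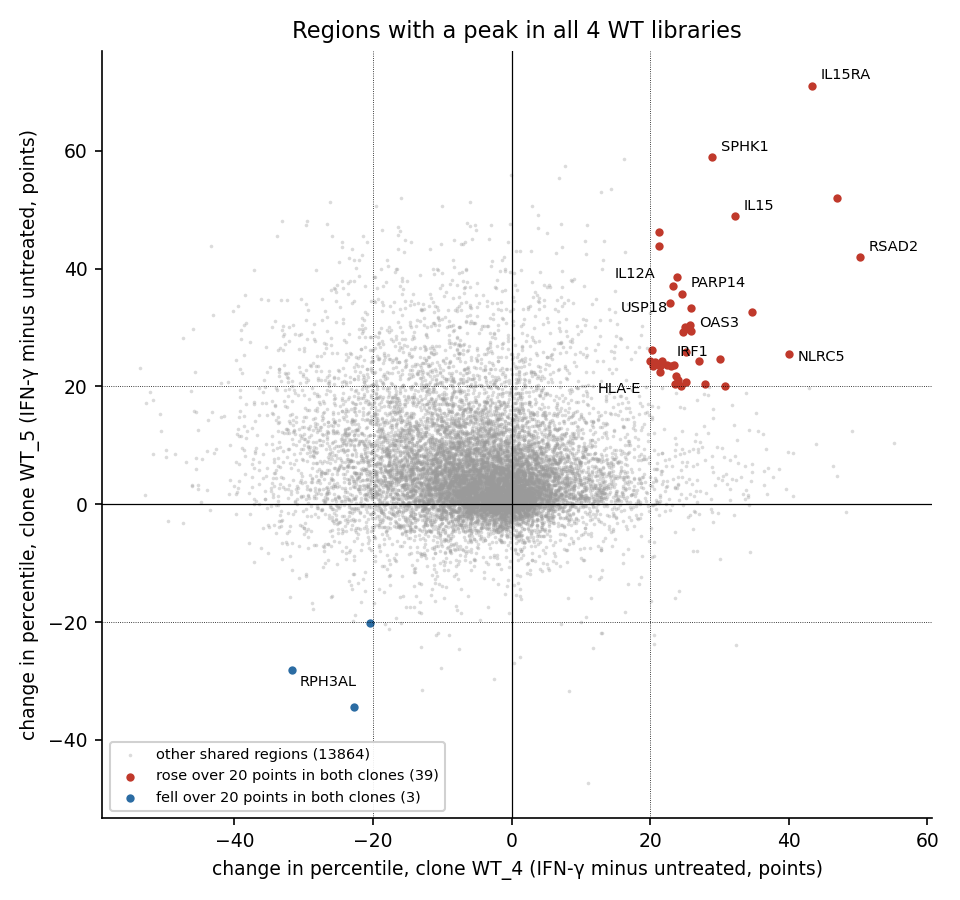
Change in percentile after IFNγ in WT_4 (horizontal) and WT_5 (vertical), in points, for the 13906 shared regions. Red points are the 39 regions over 20 points higher in both clones and blue points the 3 regions over 20 points lower. The bulk of points is displaced to the left and upward, with medians of -3.65 and 3.96.

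The 39 regions had a feature that the percentile did not use. The ISRE core was present in 15 of them (38.5%), against 4.9% of all shared regions, and in 13 of the 28 within 1 kb of a TSS (46.4%), against 4.3% of shared regions there. Among the 53 regions found with the percentile among shared regions only, 26 (49.1%) held it, and none of the 8 downward ones did. The share was lower on the other scales, at 9 of 30 regions (30%) by fold enrichment and 13 of 55 (23.6%) by fragments over background. GAS letters were in 4 of the 39 (10.3%) and in 5.3% of shared regions. LINC02963 and FAM230C, both over 500 kb from a coding TSS, held both motifs and are counted in both shares. FAM230C was lower in the treated library of both KO clones (-13.3 and -22.2 points). Of the 39 regions 7.69% lay that far from a coding TSS, against 1.83% of shared regions. Of the 39, 8 (20.5%) were nearest to a gene of the interferon lists, against 0.41% of shared regions, namely HLA-E, IRF1, NLRC5, OAS3, PARP14, PARP9, RSAD2 and USP18, and 7 of these 8 held an ISRE core. The share near interferon genes was 17% on the percentile among shared regions, 13.3% (4 of 30) by fold enrichment and 9.1% (5 of 55) by fragments over background. The gene lists were drawn up with earlier results of these data known, so these shares are no independent support.

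The pathway was then followed through 109 interferon genes in 9 lists, by the strongest peak within 500 bp of any TSS of the gene. Of these, 76 had a promoter peak in at least 1 WT library, 46 and 56 in the untreated libraries of WT_4 and WT_5, and 51 and 71 in the treated ones. A peak was present in more treated than untreated libraries at 21 promoters (27.6% of 76) and in fewer at 2 (2.63%, IRF5 and IFI16). Over all 14312 protein-coding promoters with a peak, the shares were 6.31% and 7.2%. Of the 21, 14 had their only peak in treated WT_5, the longest list, and 3 in treated WT_4 alone. At equal length 11 of 60 promoters with a peak had more and 1 had fewer, against 6.1% and 8.01% of other protein-coding genes. Without the treated library of WT_5, 7 of 62 had more and 11 had fewer, so the count rested on that library. Among other protein-coding genes the shares were then 4.45% with more and 14.56% with fewer.

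Receptor and signalling genes were open in all libraries. All 11 genes of the receptor and JAK-STAT list had a peak in all 4 WT libraries, and 6 were higher in both clones, with a median change of 2.55 points. Of all 11260 protein-coding promoters with a peak in all 4 lists, 25.1% were higher and 15.4% lower in both clones. In the IRF family, 7 of 9 promoters had a peak, and that of IRF5 was only in untreated WT_4 (4.23-fold).

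Antigen presentation genes fall into class I and class II. Of 17 class I and peptide loading genes 16 had a promoter peak, and of the 12 with a peak in all 4 lists 7 were higher in both clones and 0 lower, with a median change of 8.51 points, against 25.1% higher and 15.4% lower of all protein-coding promoters with 4 peaks and 5 of 9 higher (median 6.90) in a list of constitutive proteasome genes. TAPBP, the tapasin gene, had a peak in untreated WT_5 (4.38-fold) and in both treated libraries (3.54-fold and 9.18-fold). Of 13 class II genes 5 had a promoter peak, where 14312 of all 19962 protein-coding genes had one, and the difference between the classes was not tested. CIITA was the sole interferon promoter gained in both clones, and CD74, the invariant chain gene, had a peak only in treated WT_5, of 20.0-fold enrichment.

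Several effector promoters had a peak in treated libraries only. In the guanylate-binding protein list, 3 of 7 promoters had a peak, none of them in an untreated library. GBP1 and GBP3 had one in treated WT_5 (5.01-fold and 5.09-fold) and GBP5 in treated WT_4 (6.83-fold), the treated WT_5 peak of its gained region lying outside the 500 bp. Of the 5 APOL genes, 4 (APOL1, APOL3, APOL4 and APOL6) had a peak only in treated WT_5, from 5.01-fold at APOL6 to 21.6-fold at APOL4.

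Of 30 antiviral effectors, 19 had a promoter peak and 7 had more treated than untreated libraries with one. ISG15, the ubiquitin-like modifier, had 10.9-fold enrichment in untreated WT_5 and 9.87-fold and 43.5-fold in the treated libraries. OAS2 (8.90-fold), BST2 (4.52-fold), XAF1 (5.02-fold), IFI44L (4.87-fold), MX2 (3.96-fold) and OASL (3.61-fold) had a peak in treated WT_5 alone. Those 6 values lie in the longest list, and no library of WT_4 had a peak there.

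Among chemokine, checkpoint and tryptophan genes, CXCL10 (3.54-fold) and IDO1 (5.55-fold) had a peak in treated WT_4 alone. CXCL16 had peaks in untreated WT_4 (10.3-fold) and in both treated libraries (11.1-fold and 10.2-fold). CD274, which encodes the checkpoint ligand PD-L1, had a peak in all 4 lists and went from the 66.6 and 76.8 percentile to 84.3 and 90.2.

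Of the 44 interferon promoters with a peak in all 4 lists, 28 (63.6%) were higher in both clones and 2 (4.55%, IFIT5 and WARS1) were lower. Over all 11260 such protein-coding promoters the shares were 25.1% and 15.4%. The median mean change was 4.76 points, against -0.07 for all protein-coding promoters. PARP9 and DTX3L share 1 peak and count as 2 genes, as do TAP1 and PSMB9. A list of 14 constitutive proteasome genes, which are not interferon targets, had a median change of 6.90 points over the 9 with a peak in all 4 lists, with 5 of 9 higher in both clones. The AP-1 genes had a median change of 1.06, with 3 of 11 higher. A positive median was thus also seen outside the interferon lists, and the part of list composition in it was not tested.

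The KO libraries gave a readout in samples that had not defined the regions. Of the 395 regions gained in WT, 26.6% had a peak in the untreated and 49.1% in the treated library of the first KO clone, and 11.4% and 43.8% in those of the second, a mean difference of 27.5 percentage points (exact permutation test within clones, two-sided p = 0.5, the smallest value possible). The treated KO lists were longer, and the share of all regions also went up, by 17.8 and 12.4 points. The regions lost in WT changed by -1.3 and 5.9 points.

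All 8 lists were also cut to 16730 peaks, the length of the shortest. The WT-gained regions, 123 at that length, went from 12.2% to 61.8% in the first KO clone and from 42.3% to 65.0% in the second. All regions went from 60.8% to 67.8% and from 65.4% to 65.5%, and WT-lost regions from 46.9% to 38.1% and from 38.8% to 33.3%. Gained and lost regions of the WT clones thus moved in opposite directions in both KO clones, although 2 clones allow no p under 0.5.

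**Figure D5:**
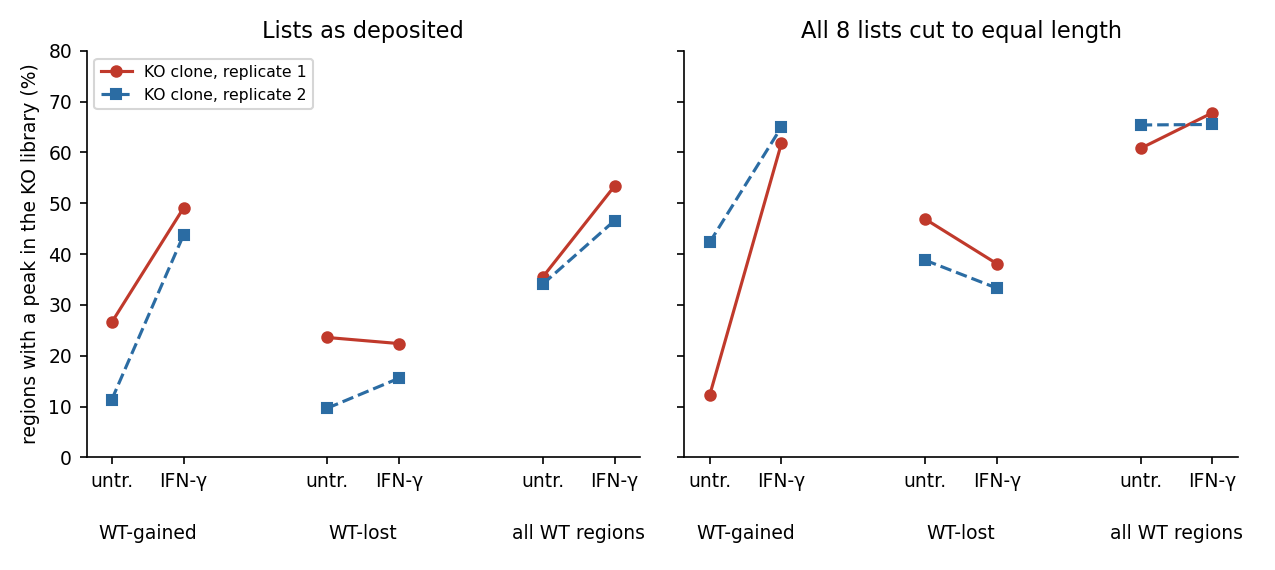
Share of WT-gained, WT-lost and all WT regions, in percent, that had a peak in the untreated and the IFNγ library of each KO clone, with the lists as deposited (left) and cut to equal length (right). At equal length the gained regions go from 12.2% to 61.8% and from 42.3% to 65.0%, while lost regions go down in both clones.

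By region, 68 of the 395 (17.2%) also had a peak in both treated and in neither untreated KO library, against 7.26% of all regions and 2.11% of lost ones. They included CIITA pIV, IL17REL, TMEM229B, LINC02324, GADD45B, SP100 and LAT2. Of the 68, 10 (14.7%) held an ISRE core, against 18.7% of all gained regions and 6.8% of all regions. GAS letters were in 5 of the 68 (7.4%), against 12.7% and 6.5%. Of the 39 regions over 20 points higher in WT, 12 had a peak in all 4 KO lists, and 11 of these 12 (91.7%) were higher in the treated library of both KO clones, against 56.2% of 11564 shared regions with a peak in all 8 lists. The 39 ranked lower without treatment, at median percentiles of 31.0 in WT_4 and 36.7 in WT_5, against 67.8 and 75.3 for all shared regions. A comparison at like rank was not made. Of the 21 interferon promoters with more treated WT libraries, 11 had any KO peak, and all 11 had it in more treated than untreated KO libraries. Among other genes with more treated WT libraries the same held for 63.6% of 563 with a KO peak. IRF5 and IFI16, the 2 with fewer in WT, did not have fewer in KO.

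In a comparison with cell type markers, 6 of 8 promoters of an osteoblast marker list had a WT peak, against 3 of 10 of an immune cell list and 3 of 4 of an epithelial list. Over all protein-coding genes 14312 of 19962 had one, so the osteoblast count was near the background and did not identify the cell type. RUNX2, the osteoblast regulator, was at the 36.4 and 40.4 percentile untreated and at 4.38 and 36.7 after IFNγ. It was the only 1 of the 3 osteoblast promoters with a peak in all 4 lists that was lower in both clones. COL1A1 and SP7 were lower in WT_4 (-9.37 and -24.9 points) and higher in WT_5 (8.20 and 41.1).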

How the data were processed

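FAIRE-seq peak lists of 4 wild-type and 4 ZBTB48 KO libraries of U2OS clones were used. Per the labels, the authors trimmed reads with Trimmomatic, aligned them to GRCh38 with Bowtie2 2.2.5, removed alignments with a mapping quality under 30 with SAMtools 1.14, called peaks in each library with MACS2 2.2.7.1 and made tracks with deepTools 3.5.1. The control and the handling of duplicates are not given in the sources used here. The deposited lists hold a fold enrichment (a ratio of summit fragments to local background) and −log10 p-values and −log10 q-values per peak, as the authors' peak caller wrote them. Summit fragments and local background were solved from the first 2 of these, and came out whole within 0.001 for 100% of peaks. The lists hold no read counts, so sequencing depth is unknown. The lowest local background was 0.621 to 1.024 fragments in the WT libraries.

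Peaks on chromosomes 1 to 22 and X overlapping by 1 bp were joined with Python 3.11.15, pandas 2.3.3, NumPy 2.4.6 and SciPy 1.17.1, annotated with GENCODE 44, and drawn with Matplotlib 3.10.9. Sequence was read with pyfaidx 0.9.0.4. Libraries were paired by the clone named in the labels, so that libraries of the same number came from the same clone. Numbers of peaks and shares were tested by exact permutation within clones, and percentiles of shared regions with limma 3.58.1 (R 4.3.3) with clone as a block. On simulated ranks this limma fit, at an adjusted p under 0.05, recovered 100 of 100 regions moved by 60 points. It recovered 59 of 100 moved by 20 points, with 7 false calls among 13706 regions not moved. The simulated noise was normal and centred on no change, and each moved region moved alike in both clones. The real changes were displaced in opposite ways, with medians of -3.65 points in WT_4 and 3.96 in WT_5. The recovery therefore does not give the power of the fit on the real ranks. The 20-point threshold was not applied to simulated ranks.

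Named regions were the 12 gained and 8 lost regions of highest mean percentile, the 8 shared regions with the largest mean change in each direction and the same sign in both clones (since no region passed limma), IRF1, CIITA and the interferon genes with a promoter peak in more or fewer treated libraries. Other names were chosen after their values were seen. The regions and gene lists were chosen with earlier results of these data known, and the 20-point threshold and its scales, and the alternatives for the ISRE share, after seeing the data. Alternatives were stricter peaks, other overlaps, equal list lengths, other promoter widths, other scales, no block and each library left out. Some genes and sequences are not reported here.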

Additional observations from a re-analysis of the deposited data

Results flagged for a closer look

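The number of listed peaks moved in opposite directions in the 2 clones after IFNγ, by -2802 in WT_4 and by 7966 in WT_5. The median percentile change of the shared regions also had opposite signs, -3.65 points in WT_4 and 3.96 in WT_5. The difference between the clones was not tested, since each clone has 1 pair of libraries.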

How the results depend on the processing

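With all listed peaks the mean change in peaks per library was 2582, and it ranged from -6728 to 11892 when 1 library was left out, turning negative without untreated WT_4 (-1344) or treated WT_5 (-6728). Leaving out 1 library gave 982 to 10832 gained and 351 to 3958 lost regions, promoter shares of 21.2% to 49.9% and 23.5% to 49.3%, and 7 to 29 interferon promoters with more treated libraries. Regions are then asked for in fewer lists. At equal list length there were 160 gained regions, of which 38.8% were at promoters, and 11 such interferon promoters. The promoter shares of gained and lost regions were 22.3% and 35.9% within 500 bp of a TSS, and 20.3% and 36.3% within 1 kb of a protein-coding TSS. Regions over 20 points lower in both clones numbered 8 on the percentile among shared regions and 22 at equal length, and 0 by fold enrichment, and the cause was not tested. Without pairing by clone the mean change in peaks was the same 2582 (exact permutation p = 1), and limma without the block called 0 regions, with 71 higher and 15 lower at an unadjusted p under 0.05. No other result was computed without the block. With 2 clones no p under 0.5 was possible, and weak peaks of about 10 fragments limit the gained and lost sets.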
